A study of Mus musculus with 8 samples.

Results

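The genes described here are 45 cytokines, chemokines, their receptors and components of the NF-kB pathway, out of 24235 genes with an Entrez gene ID on the array. They were chosen by name, with earlier results of these data known, and found by that ID. Their signal was measured in murine primary follicular cells, grown from preantral follicles of 8-week-old female Swiss mice and labelled as mostly granulosa cells, the cells that surround and feed the oocyte. Cells from pools of 5 mice per replicate were kept 9 days in culture, the last of them in hormone-free medium. They were transfected with 12 pmol of a control siRNA or of siRNA against Foxl2, together with a reporter plasmid in every group, grown a further 24 h, and given vehicle or 100 nM of the estrogen estradiol (E2) for the 10 h before lysis. This made 4 groups of 2 arrays, called here control vehicle and control E2 for the control siRNA, and FOXL2 vehicle and FOXL2 E2 for the siRNA against Foxl2.

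Cytokines and chemokines are small secreted proteins that cells use to call and instruct other cells, above all those of the immune system. Many of their genes are switched on by NF-kB, a family of transcription factor dimers that inhibitors such as IκBα, the product of Nfkbia, hold in the cytoplasm until a signal removes them. In the ovary these factors act in follicle growth, in the inflammation-like events of ovulation, and in the exchange between granulosa cells and the leukocytes of the surrounding tissue. FOXL2 is a forkhead transcription factor that keeps granulosa cells in their ovarian identity.

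The level of a gene is given below as log2 of the processed intensity scaled to the 75th percentile of its array. Levels are set side by side only within a gene, since different probes are not comparable. The exception is the summed signal of a marker list, which adds different probes. A gene said to make up most of such a sum does so in probe signal, not in transcript number. The correlation of replicates across genes was at least 0.9893, and each array had 51.4 to 55.6% of its probes well above background, the mark that the scanner software gives to a signal clearly over its local background. The granulosa marker list was well above background for 8 of 10 genes on at least 1 array, with Inha, Inhba and Amhr2 on 8 of 8 arrays, while Fshr and Amh were on none. The targeted gene, Foxl2, had a level of 13.46 and 13.01 in control vehicle arrays, 12.94 and 12.76 in control E2 arrays, 13.41 and 13.39 in FOXL2 vehicle arrays and 13.12 and 12.96 in FOXL2 E2 arrays. Averaged over both treatments it changed by 0.18 (limma, SE 0.10, adjusted p = 0.334). Its probes disagreed: the bright one, which carries the gene's level, changed by 0.18, and the dim one by -0.97 (adjusted p = 0.0208 over probes). The groups are therefore called arrays labelled FOXL2 siRNA, and every knockdown direction below rests on those labels.

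To show the regulatory sequence next to some of the genes that changed, promoters were taken from the RefSeq promoter table (build GRCm38.p6). It held 44 windows for 34 of the 45 genes. Each window was searched on both strands for the NF-kB consensus and for the forkhead core TAAACA. The NF-kB consensus was found in 13 of the 44 windows (29.5%), belonging to 11 genes, and in 4.51% of all 32851 windows of the table. The forkhead core was found in 5 of the 44 windows (11.4%), belonging to Il1rl1, Il33 and Tnfaip3, and in 13.4% of all windows. A match describes letters only and is not a measured binding site. The 250 bases upstream of the start site are printed for Cxcl1, Il6 and Tnfaip3, which fell in the arrays labelled FOXL2 siRNA, and for Csf1, which rose there. These 4 were picked among the genes that changed and hold the NF-kB consensus, which capitals mark on either strand. Il1r1, which also fell, holds it at only 1 of its annotated starts and is not printed. The windows of Ccl17, Cx3cl1, Il18 and Ackr3, which also changed, do not hold it and are not printed.

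Cxcl1, plus strand, chr5:90890995-90891244: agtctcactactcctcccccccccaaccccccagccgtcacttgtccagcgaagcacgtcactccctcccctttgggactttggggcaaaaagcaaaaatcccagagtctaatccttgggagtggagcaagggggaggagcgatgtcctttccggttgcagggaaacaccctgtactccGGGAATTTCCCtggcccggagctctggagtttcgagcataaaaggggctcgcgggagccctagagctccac
Il6, plus strand, chr5:30012864-30013113: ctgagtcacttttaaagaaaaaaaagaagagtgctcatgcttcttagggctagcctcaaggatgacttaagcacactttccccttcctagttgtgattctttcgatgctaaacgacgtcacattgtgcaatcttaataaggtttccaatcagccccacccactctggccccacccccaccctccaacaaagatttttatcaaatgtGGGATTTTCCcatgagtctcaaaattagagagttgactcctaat
Tnfaip3, minus strand, chr10:19015411-19015660: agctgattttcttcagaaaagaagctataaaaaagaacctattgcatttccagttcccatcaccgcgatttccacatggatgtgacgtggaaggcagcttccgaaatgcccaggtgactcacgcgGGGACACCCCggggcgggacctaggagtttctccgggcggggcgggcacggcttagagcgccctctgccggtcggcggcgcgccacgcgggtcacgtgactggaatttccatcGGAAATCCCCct
Csf1, minus strand, chr3:107760470-107760719: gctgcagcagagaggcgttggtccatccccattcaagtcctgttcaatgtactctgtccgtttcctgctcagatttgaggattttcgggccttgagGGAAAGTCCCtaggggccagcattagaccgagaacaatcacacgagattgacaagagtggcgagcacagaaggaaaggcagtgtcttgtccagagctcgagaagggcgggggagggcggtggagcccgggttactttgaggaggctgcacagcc

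In Cxcl1 the consensus matched on both strands at overlapping positions, so the capitals show 1 run. In Tnfaip3 the matches began 125 and 12 bases before the start site, and the gene's other annotated start carried the forkhead core instead. Of the 7 genes that fell over both treatments, 5 had a promoter in the table and 4 of these held the NF-kB consensus: Cxcl1, Il6, Il1r1 and Tnfaip3. Of the 4 genes that rose, all had a promoter and 1 held it, Csf1. Among the genes tested and not called, 3 of 14 held it, Ccrl2, Nfkbia and Nfkb2. Over all 34 genes with a promoter, 11 held it (32.4%). These counts were not tested.

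The first question was which of these genes the cultured cells expressed at all. Of the 45 genes, 33 (73.3%) were well above background on at least 1 array, against 71.4% of all genes on the array, and 27 were on 8 of 8. The 12 genes on no array were Ccl8, Ccl11, Ccl20, Cxcl2, Il1a, Il1b, Il33, Csf2, Csf3, Tnf, Il1rl1 and Cxcr4, whose levels lay between 1.19 and 3.94. They include the classical cytokines of activated leukocytes, TNF and both forms of IL-1, and the colony-stimulating factors of granulocytes. In contrast, all 6 NF-kB subunits and inhibitors, 5 of 6 cytokine receptors and all 3 cytokines of the IL-6 family were well above background on at least 1 array. The count was 31 in the control vehicle, control E2 and FOXL2 vehicle groups alike, and 33 in the FOXL2 E2 group.

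**Figure D1:**
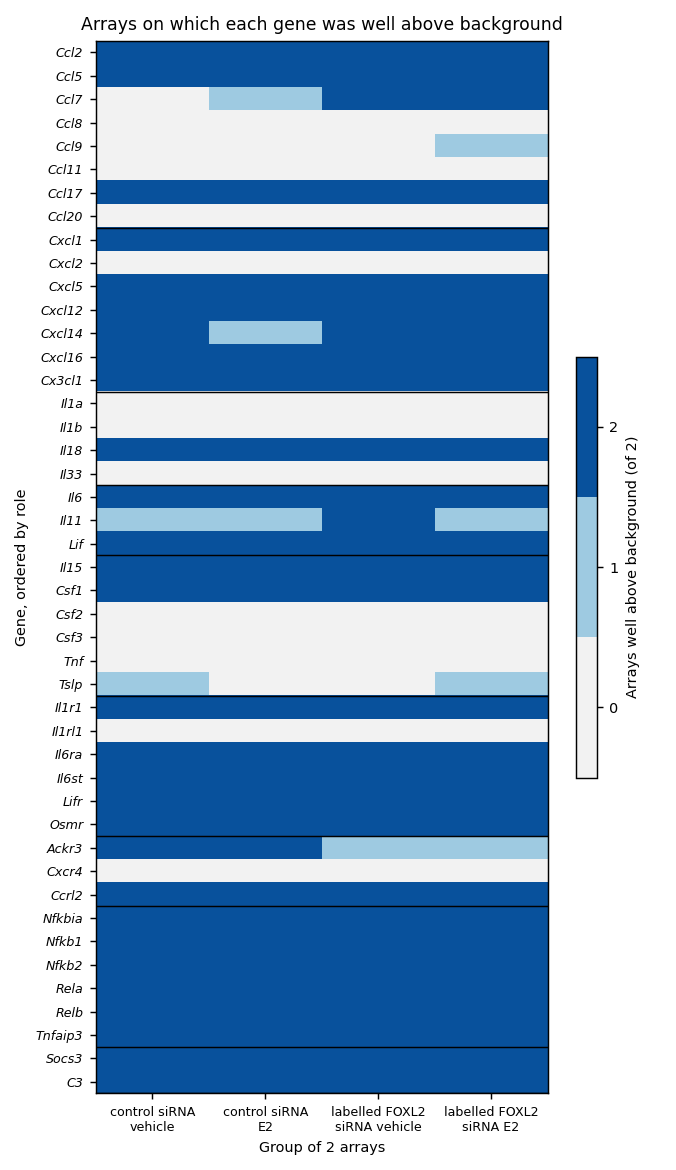
Number of arrays, of 2 per group (columns), on which each of the 45 genes (rows, ordered by role, lines between roles) was well above background. The 12 genes that are pale in every column were on no array, whereas the 6 NF-kB genes near the bottom were on all 8.

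The marker lists of immune cells gave mixed readings in these cultures. Ptprc, the pan-leukocyte marker CD45, was well above background on no array, and neither were Lyz2, Mrc1, Cd52 and Tyrobp. Of the 12 leukocyte markers 7 were well above background on at least 1 array and 4 on all. Among these were Csf1r, with a level of 8.35 to 8.97, and Itgam, with 10.1 to 10.59. The summed scaled signal of the 12 was 1850 to 2130 units on control siRNA arrays and 1730 to 2210 on those labelled FOXL2 siRNA. Most of it came from Itgam. Of the 6 tested, 0 were called in any knockdown comparison by limma (1 at an unadjusted p under 0.05 over both treatments, and 1 with the replicate block). Over both treatments 12.6% of all genes were called, and 27.7% with the block. Of 7 T or B lymphocyte markers, Cd3e, Cd4 and Cd79a were well above background on 8 of 8 arrays and the others on none.

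Of the 45 genes, 32 passed the filter of a median scaled signal of at least 10 units and were tested, and the other 13 were the 12 above and Ccl9. With vehicle, 5 of the 32 differed between the arrays labelled FOXL2 siRNA and those of control siRNA, 1 higher and 4 lower, where 6.57% of all 15637 genes tested were called. With E2 it was 2 genes, both lower, where 4.39% of all genes were called. Over both treatments, that is for the mean of both effects, 11 genes were called, 4 higher and 7 lower, or 34.4% of those tested, where 12.6% of all genes were called (6.40% higher and 6.18% lower). The median change of the 32 genes over both treatments was 0.13, against 0.00 for all genes. Same-numbered arrays deviated together, and a fit with the replicate number as a block called 15, 12 and 19 genes, where it called 18.8, 14.9 and 27.7% of all genes. Each of the genes called without the block was also called with it. In bulk samples like these, fewer cells of a type and less RNA per cell cannot be told apart.

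**Figure D2:**
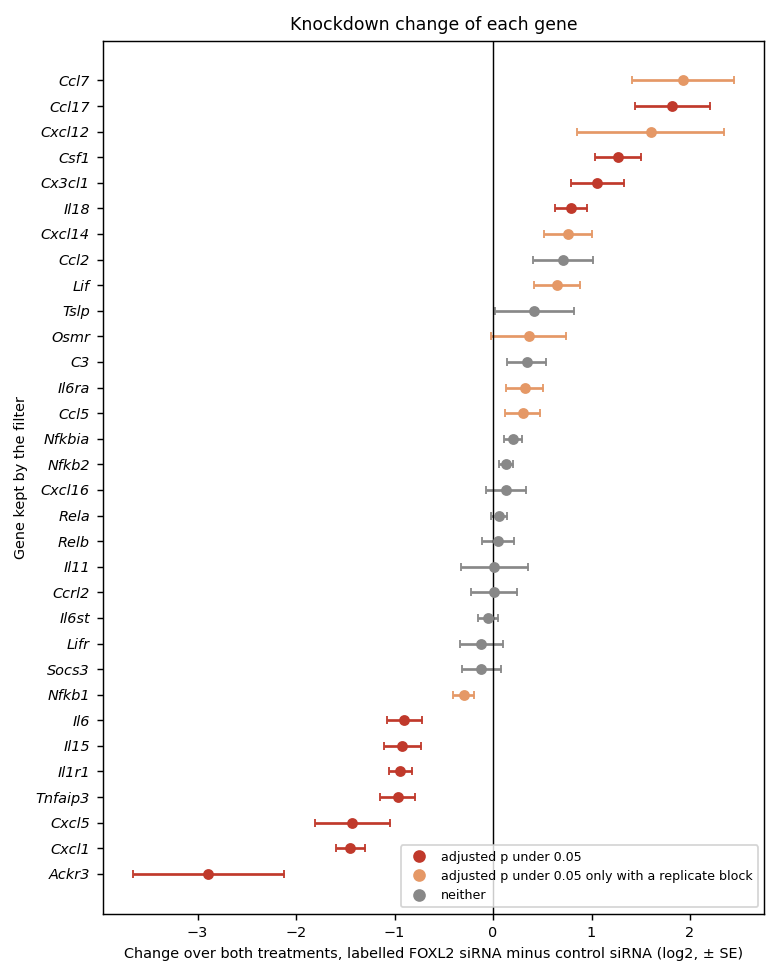
Change of each of the 32 tested genes over both treatments (x axis, log2, arrays labelled FOXL2 siRNA minus control siRNA, bars ± SE; rows are genes). The 11 genes called by limma are red, with Ackr3 lowest at -2.89 and Ccl17 highest of these at 1.82, and 8 more in orange were called in the fit with the replicate block and not in the fit without it.

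Of the chemokine genes, Cxcl1 and Cxcl5 fell over both treatments. Cxcl1, a ligand of the neutrophil receptor CXCR2, had a level of 6.32 and 6.37 in control vehicle arrays, 7.29 and 6.78 in control E2 arrays, 5.15 and 5.15 in FOXL2 vehicle arrays and 5.24 and 5.42 in FOXL2 E2 arrays. All 4 arrays labelled FOXL2 siRNA thus lay below all 4 arrays of control siRNA, which held for 20.9% of all genes tested in one direction or the other. Its change was -1.20 with vehicle (SE 0.21, adjusted p = 0.0174), -1.71 with E2 (SE 0.21, adjusted p = 0.0063) and -1.45 over both (SE 0.15, adjusted p = 0.00112), a 2.73-fold lower signal. The last of these calls held in 8 of 8 fits that left out 1 array, which here and below had no replicate block. The vehicle call was lost without any 1 of the 4 vehicle arrays (adjusted p up to 0.0936), and the E2 call without control E2 replicate 1 (-1.45, adjusted p = 0.0582). Under a normexp background correction, which adds an offset, the vehicle value was -0.48 and no longer called (adjusted p = 0.109), the E2 value was -0.94 (adjusted p = 0.0113) and the mean -0.71 (adjusted p = 0.00329).

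Cxcl5, another CXCR2 ligand, had a level of 9.01 and 8.27 in control vehicle arrays, 10.01 and 9.16 in control E2 arrays, 8.70 and 7.38 in FOXL2 vehicle arrays and 7.88 and 6.76 in FOXL2 E2 arrays. The arrays of the siRNAs overlapped with vehicle, and with E2 both arrays labelled FOXL2 siRNA were below both of control siRNA. Its change over both treatments was -1.43 (SE 0.38, adjusted p = 0.047), made up of a vehicle value of -0.60 (adjusted p = 0.626) and an E2 value of -2.27 (adjusted p = 0.0613). Both of the latter were called with the replicate block (adjusted p = 0.00909 and 1.26e-06). The call over both treatments was lost without control vehicle replicate 1 or 2, control E2 replicate 1 or 2, FOXL2 vehicle replicate 2 or FOXL2 E2 replicate 2 (adjusted p between 0.0664 and 0.144).

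Of the chemokines, Ccl17 and Cx3cl1 rose. Ccl17, a ligand of CCR4, a chemokine receptor of T cells, had a level of 9.72 and 10.29 in control vehicle arrays, 9.68 and 10.77 in control E2 arrays, 11.65 and 12.74 in FOXL2 vehicle arrays and 11.05 and 12.32 in FOXL2 E2 arrays. Every array labelled FOXL2 siRNA was above every array of control siRNA. The change over both treatments was 1.82 (SE 0.38, adjusted p = 0.019), or 3.54-fold, from 2.19 in vehicle and 1.46 in E2, neither called (adjusted p = 0.0549 and 0.219) until the replicate block was added (8.98e-07 and 1.99e-05). Fitted on the vehicle groups alone, the vehicle value was called too (adjusted p = 0.0401). The call over both was lost without control vehicle replicate 1 (adjusted p = 0.0519), control E2 replicate 1 (0.0665) or FOXL2 vehicle replicate 2 (0.0636).

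Cx3cl1, the membrane-bound chemokine fractalkine, had a level of 9.01 and 9.53 in control vehicle arrays, 8.78 and 9.60 in control E2 arrays, 10.13 and 10.70 in FOXL2 vehicle arrays and 9.70 and 10.63 in FOXL2 E2 arrays. Here too the 4 arrays of each siRNA did not overlap. It rose by 1.06 over both treatments (SE 0.27, adjusted p = 0.041), and the same-numbered arrays differed by between 0.92 and 1.17. Its values of 1.14 with vehicle and 0.98 with E2 were not called (adjusted p = 0.139 and 0.247), and were with the block (1.95e-05 and 8.17e-05). The call was lost in 6 of 8 fits that left out 1 array (adjusted p up to 0.129), all but those without FOXL2 E2 replicate 1 or control E2 replicate 2.

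Cxcl12, the ligand of CXCR4 and of the scavenging receptor ACKR3, differed strongly between the replicate numbers. Its level was 9.66 and 11.54 in control vehicle arrays, 9.60 and 11.99 in control E2 arrays, 11.53 and 13.32 in FOXL2 vehicle arrays and 11.04 and 13.28 in FOXL2 E2 arrays. Replicate 2 was above replicate 1 in all 4 groups, and the arrays of the siRNAs overlapped. The mean change of 1.60 was not called (SE 0.75, adjusted p = 0.229). Within the same replicate number, however, the 4 differences lay between 1.29 and 1.87, and with the block it was called (SE 0.09, adjusted p = 1.85e-07), as were 1.83 with vehicle and 1.36 with E2 (2.27e-06 and 2.39e-05). Both of its probes gave similar changes, 1.56 and 1.85.

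Of the receptors of CXCL12, Ackr3 fell. Ackr3, which takes up CXCL12 and clears it from around the cell, had a level of 7.19 and 6.86 in control vehicle arrays, 7.26 and 6.64 in control E2 arrays, 5.37 and 1.73 in FOXL2 vehicle arrays and 5.64 and 3.66 in FOXL2 E2 arrays. The gene was well above background on 1 of 2 arrays in either FOXL2 group, so that the size of the change is uncertain. It was -2.89 over both treatments (SE 0.77, adjusted p = 0.0478), with same-numbered differences from -1.63 to -5.13, and -1.12 under the normexp correction (adjusted p = 0.00528). With vehicle it was -3.48 and with E2 -2.31, not called (adjusted p = 0.118 and 0.348) except with the block (0.00114 and 0.0182) or, for vehicle, under normexp (-1.15, adjusted p = 0.0371) and in 1 of 8 fits without 1 array. The call was lost without either control vehicle array, either control E2 array, or replicate 2 of either FOXL2 group (adjusted p up to 0.137, and a change of -1.98 without FOXL2 vehicle replicate 2). Cxcr4, the signalling receptor for CXCL12, was well above background on no array. Ccrl2, an atypical receptor that binds chemerin, had a level between 5.00 and 5.86 and a change of 0.01 over both treatments (adjusted p = 0.982).

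**Figure D3:**
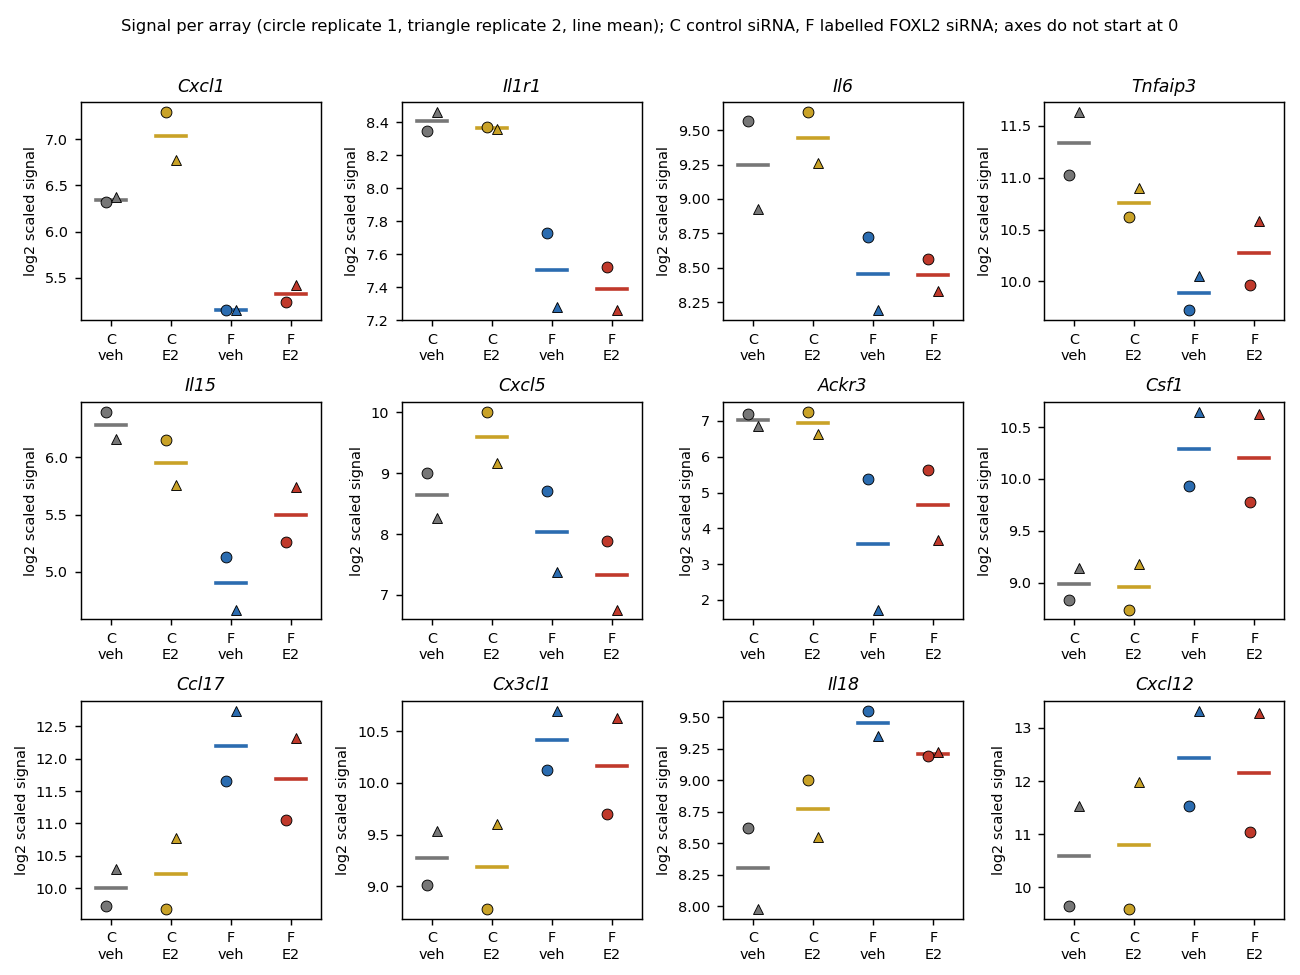
Log2 scaled signal per array (y axis, a separate range for each gene that does not start at 0) of the 11 called genes and Cxcl12 in the 4 groups (x axis; C control siRNA, F arrays labelled FOXL2 siRNA; circle replicate 1, triangle replicate 2, line group mean of 2 arrays). In Csf1, Ccl17, Cx3cl1 and Cxcl12 the triangle is above the circle in each group, and in Cxcl1 and Il1r1 the groups of the 2 siRNAs are well apart.

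The monocyte-attracting CC chemokines gave less certain values. Ccl7 had a level of 1.80 and 3.28 in control vehicle arrays, where it was well above background on no array, and 4.61 and 5.81 in FOXL2 vehicle arrays, where it was on both. To give a fold, the control vehicle mean was taken at a bound of 3.01. This is the mean over its arrays of the higher of the lowest signal well above background and the measured level. By these group means the signal with vehicle was 4.6-fold higher in the arrays labelled FOXL2 siRNA. But the measured difference was not called (limma adjusted p = 0.0809) and was called with the replicate block (adjusted p = 0.00726). Its size depends on the background correction. Under normexp the vehicle difference was 0.6 (log2) and not called (adjusted p = 0.128). With E2, replicate 1 did not share that direction, with a level of 4.55 for control siRNA and 4.39 for the array labelled FOXL2 siRNA. Over both treatments Ccl7 differed by 1.93 (SE 0.52, adjusted p = 0.0503, and 0.00434 with the block), and by 0.52 under normexp (adjusted p = 0.0426). For its relative Ccl2 the mean change was 0.71 (SE 0.30, adjusted p = 0.18), with 3 of 4 same-numbered differences above 0. Ccl5, an attractant of T cells, lay between 13.88 and 14.81 in all groups, with a mean difference of 0.30 (SE 0.18, adjusted p = 0.353, and 0.0175 with the block).

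The remaining CXC chemokines were Cxcl14 and Cxcl16. Cxcl14 had a mean difference of 0.76 (SE 0.24, adjusted p = 0.086), from 0.18 with vehicle and 1.33 with E2. Its level in the control E2 arrays was 4.99 and 4.00, with 1 of 2 arrays well above background. With the block the mean and the E2 value were called (adjusted p = 0.0155 and 0.00762). Cxcl16, a membrane-bound ligand of CXCR6, lay between 4.42 and 4.91, with a mean difference of 0.13 (adjusted p = 0.745).

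Of the cytokines, interleukin-6 fell. Il6 had a level of 9.57 and 8.93 in control vehicle arrays, 9.63 and 9.26 in control E2 arrays, 8.72 and 8.19 in FOXL2 vehicle arrays and 8.56 and 8.33 in FOXL2 E2 arrays. The 4 arrays labelled FOXL2 siRNA were all below the 4 of control siRNA, and the same-numbered differences lay between -0.75 and -1.07. Its change over both treatments was -0.90 (SE 0.18, adjusted p = 0.0168), a 1.87-fold lower signal. The vehicle value of -0.80 and the E2 value of -1.0 were not called (adjusted p = 0.126 and 0.0814), and were with the block (0.000322 and 7.71e-05). Fitted on the E2 groups alone, the E2 value was called too (adjusted p = 0.0447). The call over both was lost without control E2 replicate 1 (adjusted p = 0.0679), FOXL2 vehicle replicate 2 (0.0557) or FOXL2 E2 replicate 2 (0.0592).

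Lif and Il11, which signal through gp130 as IL-6 does, were not called. Lif had a mean difference of 0.65 (SE 0.23, adjusted p = 0.117), from 1.24 in vehicle and 0.06 in E2, and only the vehicle value and the mean were called with the block (adjusted p = 0.0115 and 0.0363). For Il11 it was 0.01 (adjusted p = 0.985), and in 3 of the 4 groups it was well above background on 1 of 2 arrays. The receptor genes Il6st, which encodes gp130, and Lifr had mean differences of -0.05 and -0.12 (adjusted p = 0.805 and 0.788). For Osmr, the oncostatin M receptor, it was 0.36 (adjusted p = 0.601, and 0.00802 with the block). For Socs3, the feedback inhibitor induced by this signal, it was -0.12 (adjusted p = 0.759), and with vehicle alone -0.40, called with the block (adjusted p = 0.0225).

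Il15, a growth factor of T cells and natural killer cells, fell as well. Its level was 6.40 and 6.16 in control vehicle arrays, 6.15 and 5.76 in control E2 arrays, 5.13 and 4.67 in FOXL2 vehicle arrays and 5.26 and 5.74 in FOXL2 E2 arrays. With vehicle the groups were clearly apart, and with E2 replicate 2 differed by -0.01 only. The change was -1.38 with vehicle (SE 0.27, adjusted p = 0.0247), -0.45 with E2 (adjusted p = 0.473) and -0.92 over both (SE 0.19, adjusted p = 0.0193). Under the normexp correction these calls were lost and the values shrank to -0.39 and -0.28 for vehicle and the mean (adjusted p = 0.156 and 0.102), and each call held in 4 of 8 fits without 1 array. The vehicle call was lost without any 1 of the 4 vehicle arrays, and the mean's call without replicate 1 of the control vehicle, control E2 or FOXL2 E2 group, or without FOXL2 vehicle replicate 2.

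Il18, the cytokine of the IL-1 family that these cells expressed, rose. Its level was 8.62 and 7.98 in control vehicle arrays, 9.00 and 8.55 in control E2 arrays, 9.55 and 9.35 in FOXL2 vehicle arrays and 9.19 and 9.22 in FOXL2 E2 arrays. All arrays labelled FOXL2 siRNA were above all those of control siRNA, by a narrow margin with E2. The change was 1.15 with vehicle (SE 0.23, adjusted p = 0.0253), 0.43 with E2 (adjusted p = 0.414) and 0.79 over both (SE 0.16, adjusted p = 0.0176). The vehicle call was lost without either FOXL2 vehicle array or control vehicle replicate 2 (adjusted p up to 0.129), and the mean's call without FOXL2 vehicle replicate 1, control E2 replicate 2 or FOXL2 E2 replicate 2 (adjusted p up to 0.0632).

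The receptor of IL-1, whose ligand genes Il1a and Il1b were well above background on no array, fell. Il1r1 had a level of 8.35 and 8.46 in control vehicle arrays, 8.37 and 8.36 in control E2 arrays, 7.73 and 7.28 in FOXL2 vehicle arrays and 7.52 and 7.26 in FOXL2 E2 arrays. The 4 arrays of control siRNA lay within 8.35 to 8.46, all above those labelled FOXL2 siRNA. Il1r1 was called with both treatments, at -0.90 with vehicle (SE 0.17, adjusted p = 0.0231), -0.98 with E2 (SE 0.17, adjusted p = 0.0224) and -0.94 over both (SE 0.12, adjusted p = 0.00269). The last of these held in 8 of 8 fits without 1 array. The vehicle call was lost in 5 of these fits, without any 1 of the 4 control siRNA arrays or without FOXL2 vehicle replicate 2 (adjusted p up to 0.12), and the E2 call without either control E2 array or FOXL2 E2 replicate 2 (up to 0.14).

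Csf1, the growth factor of macrophages, rose over both treatments. Its level was 8.83 and 9.14 in control vehicle arrays, 8.74 and 9.18 in control E2 arrays, 9.93 and 10.65 in FOXL2 vehicle arrays and 9.78 and 10.63 in FOXL2 E2 arrays. The arrays of the 2 siRNAs did not overlap. The change over both treatments was 1.27 (SE 0.23, adjusted p = 0.0108), or 2.42-fold, and this call held in 8 of 8 fits without 1 array. Taken alone, 1.30 in vehicle and 1.25 in E2 were not called (adjusted p = 0.0592 and 0.0852), and were with the block (1.75e-05 and 3.24e-05) and, without 1 array, in 2 and 1 of 8 fits. Its 3 probes gave 1.32, 1.10 and 1.05. Tslp, an epithelial cytokine, was well above background on 1 control vehicle array and 1 FOXL2 E2 array, with a mean difference of 0.42 (adjusted p = 0.572).

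**Figure D4:**
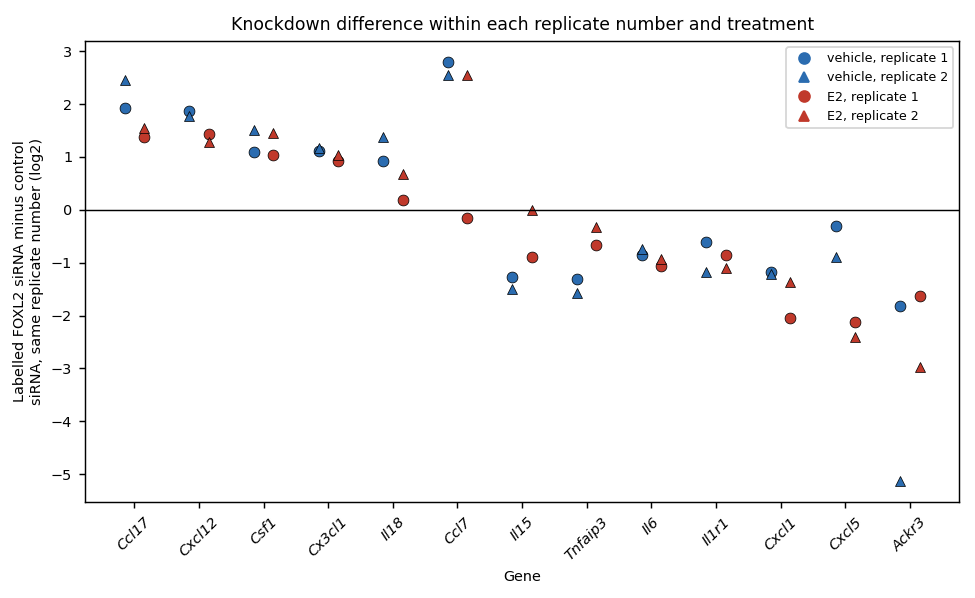
Difference between the array labelled FOXL2 siRNA and the array of control siRNA with the same replicate number (y axis, log2) for 13 genes (x axis), by treatment (blue vehicle, red E2) and replicate (circle 1, triangle 2). For Cxcl12 the 4 points lie between 1.29 and 1.87, for Ackr3 between -1.63 and -5.13.

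Within the NF-kB pathway, no DNA-binding subunit was called and the inhibitor A20 fell. Tnfaip3, which encodes A20, an enzyme that ends NF-kB signalling, had a level of 11.03 and 11.63 in control vehicle arrays, 10.62 and 10.90 in control E2 arrays, 9.72 and 10.05 in FOXL2 vehicle arrays and 9.96 and 10.58 in FOXL2 E2 arrays. All arrays labelled FOXL2 siRNA were below all those of control siRNA. The change was -1.45 with vehicle (SE 0.26, adjusted p = 0.0179), -0.49 with E2 (adjusted p = 0.403, and 0.00603 with the block) and -0.97 over both (SE 0.18, adjusted p = 0.0127). The vehicle call was lost without either FOXL2 vehicle array or control vehicle replicate 2 (adjusted p up to 0.101), and the mean's call without control E2 replicate 2 (adjusted p = 0.0533).

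The DNA-binding subunits gave changes over both treatments of 0.06 for Rela, 0.05 for Relb, 0.13 for Nfkb2 and -0.30 for Nfkb1, with SEs of 0.08, 0.16, 0.07 and 0.11. Of these only Nfkb1 was called with the block (adjusted p = 0.0483). Rela lay between 13.88 and 14.18 on the 8 arrays. Nfkbia, itself a target of NF-kB, lay between 11.37 and 11.78, with a mean difference of 0.20 (SE 0.09, adjusted p = 0.176). C3, the central complement component, had 0.34 (SE 0.20, adjusted p = 0.332), with arrays between 6.02 and 7.29.

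The wider pathway lists were then counted over both treatments, where 12.6% of all genes were called, and 27.7% with the block. Of the NF-kB signalling list, 6 of 39 genes tested were called (15.4%), a share near that of all genes, 1 higher and 5 lower, with a median change of -0.04. Lower were the adaptors Traf1 (-0.80, adjusted p = 0.0196) and Traf3 (-0.72, adjusted p = 0.00536) and the kinase adaptor Tab2 (-0.41, adjusted p = 0.012), and higher was the ubiquitin ligase Birc2 (0.39, adjusted p = 0.0403). With the block, 11 were called, 3 higher and 8 lower. Of the JAK-STAT signalling list, which transmits the signal of the IL-6 family, limma called 0 of 22 genes, 3 had an unadjusted p under 0.05, and the block called 4. The interferon response list had 0 of 20 genes called, 4 at an unadjusted p under 0.05 and 10 with the block, all 10 higher, and a median change of 0.20.

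Of the other cytokines, 4 of 16 were called (25%, against 12.6% of all genes), 1 higher and 3 lower, and 2 higher and 3 lower with the block. Il7, a growth factor of lymphocytes, fell by 1.46 (adjusted p = 0.000275), Il34, the second ligand of the CSF1 receptor, by 0.93 (adjusted p = 0.00137) and Il17d by 0.43 (adjusted p = 0.016), and Cntf rose by 0.55 (adjusted p = 0.00535). Il34 thus moved against Csf1, with which it shares a receptor. Within single treatments Il34 was called with E2 (-1.44, limma adjusted p = 0.00306) and not with vehicle. Of 8 other chemokines 1 was called, Cxcl13, the attractant of B cells, at -1.46 (adjusted p = 0.00115), and with the block 1 higher and 1 lower. Of 37 other receptors 5 were called (13.5%, near the 12.6% of all genes), 2 higher and 3 lower, and with the block the balance turned to 7 higher and 4 lower. The 5 were Ackr4, a scavenger of CC chemokines, at -2.20 (adjusted p = 0.018, well above background on 6 of 8 arrays), Tnfrsf1a, the TNF receptor, at -0.37 and Ltbr at -0.24, against Il10rb at 0.40 and Il15ra at 0.34.

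Of the inflammatory target genes, 5 of 18 were called (27.8%, against 12.6% of all genes), 2 higher and 3 lower, and with the block 4 higher and 3 lower. Cebpd rose by 1.45 (adjusted p = 0.000304) and Gadd45b by 0.89 (adjusted p = 0.00111). Ptgs2, the cyclooxygenase that makes prostaglandins at ovulation, changed by -1.25 (adjusted p = 0.0216), and Cebpb, the partner of Cebpd, by -0.56 (adjusted p = 0.00682). Plau, the urokinase protease, had a mean of -1.15 (adjusted p = 0.00297) from values of opposite sign, a vehicle value of -2.77 (adjusted p = 0.00111) and an E2 value of 0.47 (adjusted p = 0.336). The median change of the list was 0.03, so that calls in both directions stood beside a list that was not shifted as a whole.

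Some genes on the cell type marker lists changed with the labels as well. Over both treatments limma called 12.6% of all genes, 6.40% higher and 6.18% lower, and 27.7% with the block. The lists below held 5 to 8 tested genes, so that each gene weighs heavily in such a share. Of the epithelium list, 3 of 5 genes tested were higher over both treatments, Msln by 2.07 (adjusted p = 0.000134), Upk3b by 1.47 (adjusted p = 0.00446) and Krt18 by 0.47 (adjusted p = 0.00384), and 4 with the block. All 6 of its genes were well above background on at least 1 array, Epcam on 2 of 8. Its summed scaled signal was 13600 to 15700 units on the arrays of control siRNA and 20400 to 23200 on those labelled FOXL2 siRNA. Most of this sum came from Krt18, with a level of 13.68 to 13.89 and 14.19 to 14.34 on these arrays. Of the theca or stroma list, 1 of 6 was higher, Cyp11a1 (0.89), and 1 lower, Hsd3b1 (-0.69). With the block 5 of these 6 were higher and 1 lower, and the median change was 0.54. Of the granulosa list 0 of 8 were higher and 2 lower, Hsd17b1 (-1.47) and Esr2 (-0.46), and with the block 1 and 3. The summed signal of the granulosa list was 125000 to 137000 units with control siRNA and 132000 to 159000 on arrays labelled FOXL2 siRNA. That of the theca or stroma list was 131000 to 158000 and 106000 to 134000. Such sums mostly follow the brightest genes of a list. The part of these markers in the changes of the cytokine genes was not tested.

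The last question was whether E2 changed these genes, and whether it did so differently with the siRNA against Foxl2. No gene of the 32 was called by limma for E2 with control siRNA, with the siRNA labelled FOXL2, for the mean of both, or for the difference between the E2 effects. Before adjustment, 2, 0, 1 and 5 genes had a p under 0.05. Over all genes, 0.0192, 0.0128, 0.00 and 0.243% were called. The replicate block gave 3, 1, 0 and 3 genes, where it called 1.16% of all genes for control siRNA, 0.614% for the arrays labelled FOXL2 siRNA and 2.12% for the difference. The median E2 change of the 32 genes was -0.03 with control siRNA and -0.05 on the arrays labelled FOXL2 siRNA, against -0.01 and -0.03 for all genes.

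The genes called with the block were Cxcl5, Il6ra and Tnfaip3, and in each the E2 effects had opposite signs. Cxcl5 changed with E2 by 0.94 with control siRNA, and by 1.00 and 0.89 in replicates 1 and 2, whereas on the arrays labelled FOXL2 siRNA it changed by -0.72, and by -0.83 and -0.62 in the replicates. These effects had adjusted p = 0.999 and 1.00, and 0.00598 and 0.0422 with the block. The difference of these effects was -1.67 (SE 0.76, adjusted p = 1.00), and with the block its SE was 0.19 (adjusted p = 0.000707). Il6ra, the binding subunit of the IL-6 receptor, had a level of 9.85 and 9.36 in control vehicle arrays, 9.10 and 8.76 in control E2 arrays, 9.74 and 9.04 in FOXL2 vehicle arrays and 9.98 and 9.59 in FOXL2 E2 arrays. It was lower with E2 in both replicates of control siRNA and higher in both labelled FOXL2 siRNA, a difference of effects of 1.07 (SE 0.38, adjusted p = 0.837, and 0.00214 with the block). For Tnfaip3 that difference was 0.95 (SE 0.36, adjusted p = 0.925, and 0.00438 with the block), from E2 changes of -0.57 and 0.38. The E2 effect with control siRNA was called with the block for Il6ra (-0.68, adjusted p = 0.00864) and for Tnfaip3 (adjusted p = 0.0213). On the arrays labelled FOXL2 siRNA the E2 effect of neither gene was called, with or without the block. Over both treatments, Il6ra differed by 0.32 between the siRNAs (adjusted p = 0.339, and 0.00662 with the block), and with E2 alone by 0.86 (adjusted p = 0.144, and 0.00014 with the block).

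**Figure D5:**
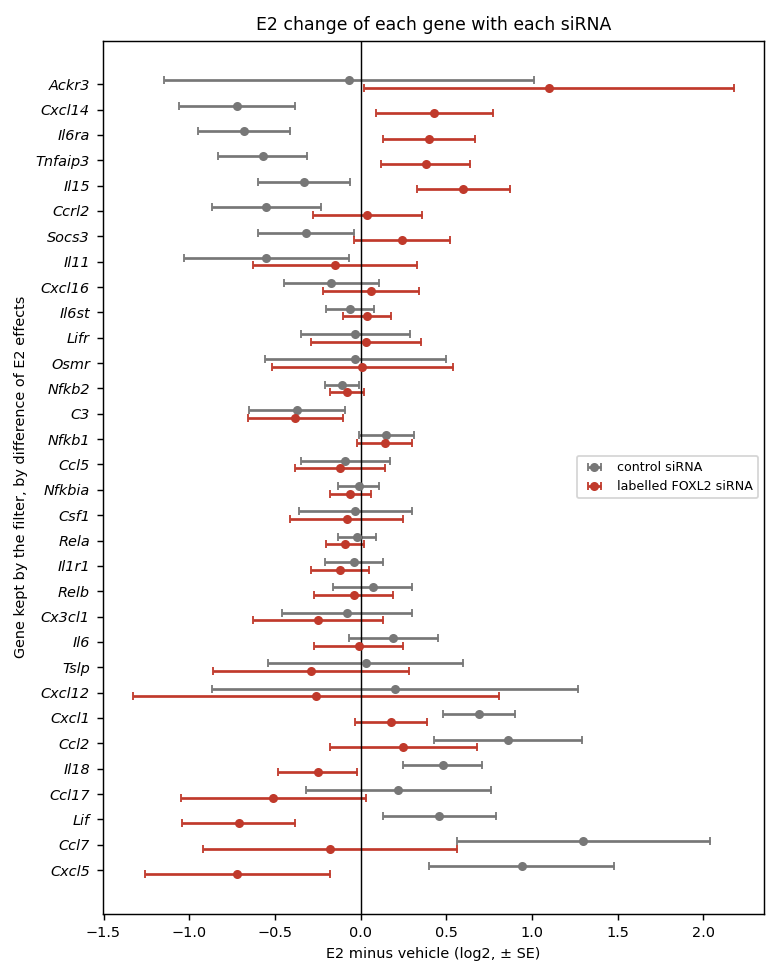
E2 minus vehicle (x axis, log2, bars ± SE) of the 32 tested genes (rows, ordered by the difference of E2 effects) with control siRNA (grey) and on the arrays labelled FOXL2 siRNA (red). At the bottom Cxcl5 lies at 0.94 with control siRNA and -0.72 on the arrays labelled FOXL2 siRNA, and no gene was called in either comparison.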

How the data were processed

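RNA of 8 cultures was labelled with Cy3 and hybridised to 1-colour Agilent arrays on 1 slide. Per the file headers, the deposited scanner files hold the processed intensity of each spot, from which the authors' software had subtracted background. The authors' log2 values were compared with log2 of the mean processed intensity per gene, scaled to the 75th percentile of its array. They equalled it plus 1 constant per array (0.19 to 0.22), within 0.001 at 98.8 to 99.0% of genes. The methods describe scaling to the 75th percentile, averaging over transcripts and removal of genes with a median fluorescence under 10. Other deposited columns, spot flags and a mark for signal well above background, were used as given.

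Of 62976 spots, 3671 controls were left out, repeat spots of a probe were averaged, and 39 flagged probes were dropped, leaving 55642 probes. Each array's intensities were divided by their 75th percentile (275 to 367 units), probes were averaged per Entrez gene, and 15637 of 24235 genes with a median of at least 10 were kept. The model had 4 group means, an intensity trend and 4 residual degrees of freedom, and was run in limma (3.58.1, under R 4.3.3). The two-sided p-values were adjusted by Benjamini-Hochberg over all genes kept, and genes under 0.05 were called. On simulated data for the knockdown over both treatments (15637 genes), the fit recovered 83% of changes of 1 and 95% of changes of 2 (log2). It made 11 false calls. The simulated arrays lacked the shared deviation of same-numbered arrays, so these rates may not hold for the real arrays. Python 3.11.15 served for tables and plots. Arrays give no read depth, and 2 per group limit precision.

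Groups and replicate numbers came from the sample titles. The labels describe 1 pool of 5 mice per replicate and cultures grown independently; they do not state outright that the 4 cultures of a number share a pool. The differences between replicates 1 and 2 correlated across genes between every pair of groups (r from 0.329 to 0.445), so the numbers were taken to pair the arrays, and the fit with a replicate block is given beside the result where it changes a call. Alternatives were normexp background correction (on median signals, offset 50), quantile normalization, other filters, the brightest probe, the authors' table, no trend, only the groups compared, the block, and leaving out each array. The fits that left out 1 array had no block. In them a missing array also moves the change by part of the difference between replicates. The genes, lists and motifs were chosen with earlier results of these data known. All 45 genes are named, with statistics for those called, and of each list up to 3 higher and 3 lower called genes.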

Additional observations from a re-analysis of the deposited data

Results flagged for a closer look

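Of the genes named here, Plau from the list of inflammatory target genes responded differently to E2 with each siRNA, by the test of the difference itself. Its level was 9.90 and 9.91 in control vehicle arrays, 7.75 and 8.10 in control E2 arrays, 7.30 and 6.97 in FOXL2 vehicle arrays and 8.68 and 8.11 in FOXL2 E2 arrays. The E2 difference was -1.98 with control siRNA (limma adjusted p = 0.0654) and 1.26 on the arrays labelled FOXL2 siRNA (adjusted p = 0.357), neither of them called without the replicate block (0.000232 and 0.00632 with it). These effects differed by 3.24 (SE 0.31, limma adjusted p = 0.0148). The call held in 3 of 8 fits that left out 1 array. It was lost without any 1 of the 4 arrays of control siRNA or without FOXL2 vehicle replicate 2, with a difference between 2.95 and 3.53 over the 8 fits and an adjusted p up to 0.095.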

How the results depend on the processing

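None of the 18 called changes of single genes reversed under the alternatives run, and all 18 stayed called with the filter on signal well above background, the brightest probe, the authors' table and the replicate block, which takes same-numbered arrays as pairs. Calls were lost for Ackr3 and Cxcl5 over both treatments with quantile normalization, and for these and Cx3cl1 without a filter or without the intensity trend. Without a filter the Il15 calls and the vehicle call of Il18 were lost too, and without the trend those of Ccl17, of Il18 and Tnfaip3 with vehicle, and of Il1r1 with each treatment alone. The number of genes called with vehicle went from 5 to 3 without a filter, 2 without the trend, 3 with only the groups compared (lost for Il15, Il18 and Il1r1, gained for Ccl17) and 15 with the replicate block. Leaving out 1 array gave 0 (replicate 2 of either vehicle group) to 7, with 2 for replicate 1 of either vehicle group. With E2 it went from 2 to 1 without the trend and 12 with the replicate block, and to between 0 (control E2 replicate 1) and 3 without 1 array, with 1 for replicate 2 of either E2 group. Over both treatments it went from 11 to 7 without a filter or without the trend and 19 with the replicate block, and to between 5 (FOXL2 vehicle replicate 2) and 11 without 1 array, with 6 for control vehicle replicate 1 and FOXL2 E2 replicate 2, and 7 for either control E2 array. For E2 with control siRNA, E2 with FOXL2 siRNA and the difference of E2 effects the replicate block gave 3, 1 and 3 genes in place of 0. The change of Cxcl5 with vehicle, not called, lay between -1.26 and 0.06 without 1 array, the latter without FOXL2 vehicle replicate 2. These fits had no replicate block, and the same-numbered differences of Cxcl5 with vehicle were -0.31 and -0.89. Low signal and 2 arrays per group limit these values, and the cause of the changes was not tested.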
